A study of Oryza sativa with 35 samples.

Results

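The comparison described here set the base of the stem internode against the base of the leaf sheath in rice (Oryza sativa L. cv. Nipponbare) at heading, the stage at which the panicle leaves the sheath. Its members were chosen by sample title: the 3 arrays labelled InN I-bsl, the basal part of internode I, and the 2 arrays labelled FLS-bsl, the basal part of the flag leaf sheath, 5 of the 35 arrays of the series. The 3 InN I-top and 3 FLS-top arrays, the upper parts of the same organs, gave the comparison at the other end. Total RNA was hybridized to Affymetrix Rice Genome Arrays, on which a group of short probes, a probe set, reads each transcript. All plants were grown on soil in an irrigated and lit greenhouse, and the labels name no treatment. The labels call the arrays of a group biological replicates and do not say whether each was 1 plant or a pool. They also do not say how long the pieces cut were, or whether internode and sheath came from the same plants. The p-values therefore reflect only how far samples varied, which may be technical in part. That spread was estimated over 32 arrays of 11 groups together, so it is mostly that of other organs. The 2 sheath base arrays differed from each other more than replicates elsewhere, so p-values can be too small where these 2 arrays part.

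Internode I is the uppermost internode, which carries the panicle. Rice internodes grow from a zone of dividing cells near their base, the intercalary meristem, above which cells lengthen and then thicken their walls with cellulose, xylan and lignin. The flag leaf sheath is a tube that wraps around this internode and joins the stem at node I, directly below the internode base. The sheath supports the stem, is green where it is exposed, and stores starch before the grains fill. KNOX homeobox factors are active in stem tissue and meristems and are kept off in young leaves, YABBY factors act in leaves and other lateral organs, and the BLADE-ON-PETIOLE proteins promote sheath identity in rice leaves.

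Values are given as the log2 of the signal after quantile normalization, so that a difference of 1 is a 2-fold difference, and they are compared between samples within a gene, not between genes. A probe set was called when the limma fit gave a Benjamini-Hochberg adjusted p under 0.05 and at least a 2-fold difference. Differences are internode base minus sheath base. In tissue samples of this kind, fewer cells that express a gene and less of its RNA in each cell cannot be told apart.

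The 2 sheath base arrays stood apart from each other. Their values correlated at 0.867 across the 40713 probe sets tested, whereas replicate pairs of the other 10 groups lay between 0.915 and 0.948. Of the probe sets tested, 33.7% differed at least 2-fold between the 2 sheath base arrays, against 15.0% to 24.9% for replicate pairs elsewhere and 22.7% to 24.7% within the internode base. Sheath base array 1 correlated at 0.782 to 0.801 with the internode base arrays and at 0.892 to 0.899 with the sheath top arrays. Sheath base array 2 lay the other way, at 0.845 to 0.847 with the internode base and 0.786 to 0.797 with the sheath top. Node I correlated with array 1 at 0.875 to 0.877 and with array 2 at 0.861 to 0.884, and for array 2 no group lay higher than nodes I and II. These correlations are over probe sets that share each array's labelling and scaling, and describe the arrays only. The 2 arrays also had more values below the floor of 1 (1339 and 963 probe sets) than the 3 internode base arrays (238, 337 and 333), and their hybridization controls, RNAs added in known amount to each sample, read 11.11 and 10.56 on the log2 scale, against 11.58, 11.87 and 11.81 in the internode base. The part of these differences in the results was not tested. The groups of genes below are therefore given against the 2 sheath arrays together, and most of them also against each array.

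Of the marker lists, KNOX genes divided the sheath arrays by count, and the BLADE-ON-PETIOLE, photosynthetic and floral lists did not. All 9 KNOX genes tested reached the filter level (log2 5.83, the median over all arrays) on the 3 internode base arrays, 5 were on sheath base array 1, and all 9 were on sheath base array 2. On the sheath top arrays the number was 3 to 5, and on the internode top arrays 7 to 8. Both sheath base arrays had both BLADE-ON-PETIOLE genes above that level, as did 2 of the 3 internode base arrays. The 14 photosynthetic genes tested were above it on every array of the 4 groups, with summed levels of 16.81 to 17.02 (log2) in the internode base and 17.31 and 16.86 in the sheath base. Of 12 floral organ MADS-box genes, 2 were above it on each of the 5 base arrays and 12 on each flower array. The summed level of the 6 node transporter markers was 13.13 to 13.56 (log2) in the internode base and 15.46 and 14.32 in the sheath base, against 15.83 to 16.01 in node I. Of these node markers, Lsi2, a silicon efflux transporter, read 2.22, 3.11 and 3.77 in the internode base and 5.07 and 3.02 in the sheath base, below the filter level in all 5, against 12.43 ± 0.83 (SD, n = 3) in node I.

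In the internode base, 3433 probe sets were called higher and 4998 lower than in the sheath base, of 40713 tested, which is 8.43% and 12.3%. Counted once a gene, at the brightest probe set, 1668 of 17258 genes were higher (9.67%) and 2720 lower (15.8%), with a median difference of -0.13. These shares are the background for the counts of each gene list below. Without sheath base array 1, 2743 probe sets were called higher and 3785 lower, and without sheath base array 2, 4153 and 5710. A smaller set was called the same way in the full fit and without each of the 5 arrays in turn: 1396 higher (3.43%) and 2612 lower (6.42%, or 9.84% either way). Over genes those shares were 4.51% and 8.99%. Without sheath base array 1 the shares of genes called were 7.88% higher and 13.3% lower, and they were 12.7% and 18.3% without array 2. The 3 internode and 2 sheath values did not overlap for 46.3% of all probe sets tested.

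The balance between higher and lower calls depended on the scaling. Higher calls made up 40.7% of all calls after quantile normalization, 46.1% on the deposited scale, 24.0% with array medians set equal and 8.67% with the hybridization controls set equal. The median difference over all probe sets was -0.04, 0.08, -0.34 and -0.85 in the same order. In a fit to the 5 arrays alone, 823 probe sets were called higher and 754 lower (52.2% higher). Differences below are relative to the quantile-normalized scale, and lists whose median is small change sign with these shifts.

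**Figure D1:**
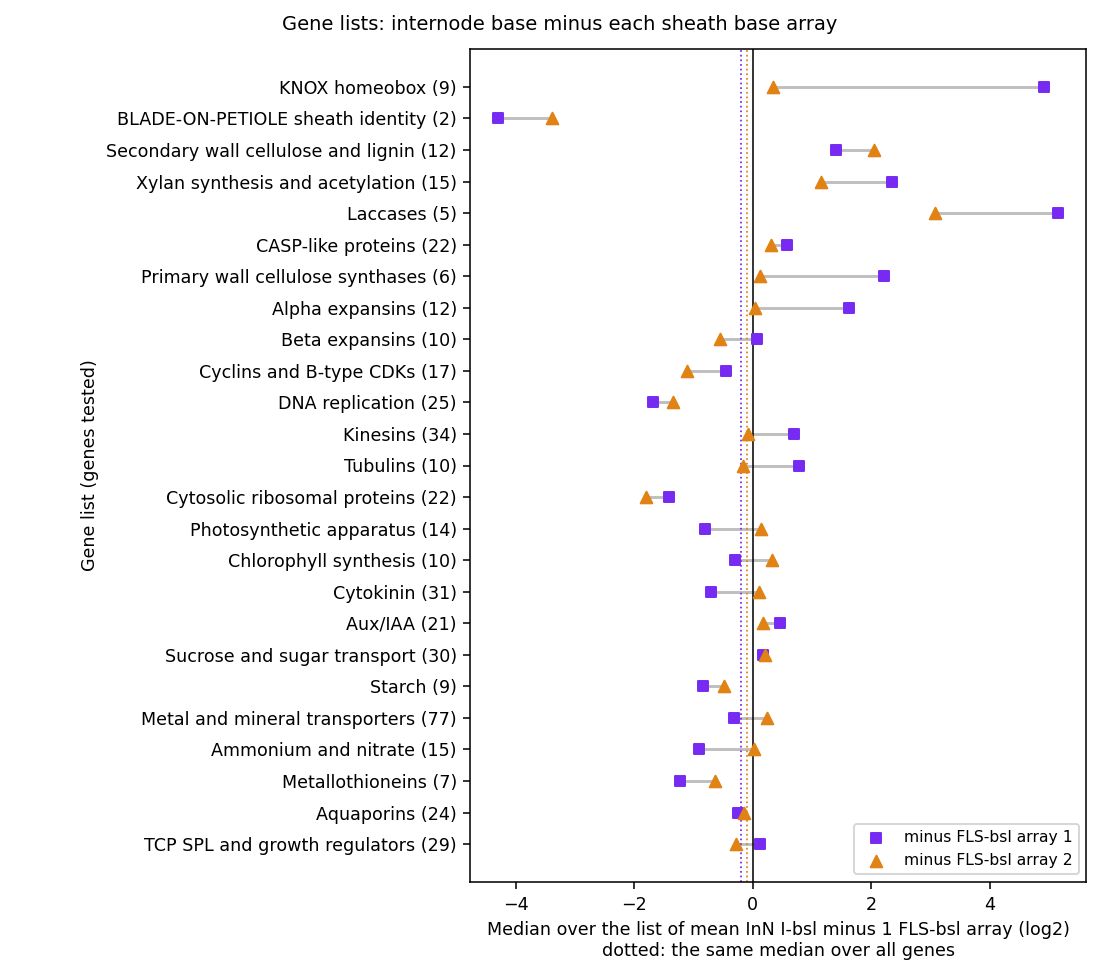
Median difference of each gene list, as the mean of the 3 InN I-bsl arrays minus FLS-bsl array 1 (squares) and minus FLS-bsl array 2 (triangles), in log2 units, with the number of genes tested in brackets and dotted lines for the same medians over all genes. The KNOX median was 4.92 against array 1 and 0.35 against array 2, while the replication and ribosomal lists lay below 0 and the secondary wall list above 0 against both.

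KNOX homeobox genes, whose products maintain meristems and stem tissue, were mostly higher in the internode base, and most of that rested on sheath base array 1. Of 9 tested, 5 were called higher and 1 lower, with a median difference of 3.10. OSH1, the class I gene known for keeping the shoot meristem active, read 12.75, 13.21 and 13.07 in the internode base, against 4.24 and 12.66 in the sheath base (log2 difference 4.56 ± 1.45 SE, adjusted p = 0.0193). The low value was that of sheath base array 1 alone, and array 2 lay just below the lowest internode array. A second, dimmer OSH1 probe set, marked for possible cross-hybridization, read 12.19, 12.78 and 12.58 in the internode base, against 2.36 and 11.97 in the sheath base, and through its difference of 5.35 OSH1 was among the 10 largest rises. The OSH1 difference without sheath base array 1 was 0.35 (adjusted p = 0.882), and without array 2 it was 8.77 (adjusted p = 4.04e-06). The sheath top had 3.61, 0.64 and 4.24 and the internode top 13.94, 13.86 and 13.87, so array 1 read like the sheath top and array 2 like the stem for this gene.

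Other class I KNOX genes followed the same division. OSH71 read 12.30, 12.02 and 12.20 in the internode base, against 7.25 and 10.86 in the sheath base (log2 difference 3.12 ± 0.90 SE, adjusted p = 0.0107), and OSH43 read 11.38, 10.26 and 10.62 in the internode base, against 5.23 and 10.08 in the sheath base (log2 difference 3.10 ± 0.94 SE, adjusted p = 0.0142). Neither was called without sheath base array 1 (adjusted p = 0.396 and 0.656). OSH3 was the only KNOX gene called higher in the full fit and without each of the 5 arrays in turn. It read 10.14, 9.22 and 9.52 in the internode base, against 3.87 and 7.81 in the sheath base (log2 difference 3.79 ± 0.68 SE, adjusted p = 0.000144). OSH6 read 8.54, 7.06 and 8.69 in the internode base, against 5.04 and 7.75 in the sheath base and was not called (adjusted p = 0.113). The OSH43 probe set is marked for possible cross-hybridization. An unmarked, slightly dimmer OSH43 probe set was not called (difference 2.72, adjusted p = 0.109). Leaving marked probe sets out gave 4 KNOX genes called higher and 1 lower.

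The class II KNOX genes, which are known in other plants from differentiated organs, did not move together. HOS66 read 12.93, 12.87 and 12.77 in the internode base, against 7.63 and 10.14 in the sheath base (log2 difference 3.97 ± 1.08 SE, adjusted p = 0.00681), and its call was lost without sheath base array 1 (adjusted p = 0.161). HOS59 was the KNOX gene called lower, with 11.09, 10.88 and 11.01 in the internode base, against 12.86 and 11.80 in the sheath base (log2 difference -1.34 ± 0.22 SE, adjusted p = 6.49e-05), and it was not called without array 1 (-0.81, adjusted p = 0.00869). HOS58, at 13.34, 13.21 and 13.35 in the internode base, against 13.47 and 13.05 in the sheath base, differed by 0.04 (95% interval -0.25 to 0.34), and OSH45 by -0.51 (adjusted p = 0.0787). The groups of arrays overlapped for both. Leaving out sheath base array 1 left 1 KNOX gene called higher and 0 lower, and leaving out array 2 gave 6 higher and 2 lower.

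The BLADE-ON-PETIOLE genes lay on the sheath side in both sheath arrays. Of 3 genes on the list, 2 were tested and both were called lower in the internode base, also without each of the 5 arrays in turn. NH5.2 read 6.73, 5.87 and 4.32 in the internode base, against 12.12 and 10.94 in the sheath base (log2 difference -5.89 ± 0.78 SE, adjusted p = 3.71e-06), with both sheath arrays above every internode array. Its probe set is marked for possible cross-hybridization, and a dimmer probe set of the same gene, with a mean of 3.63 over all arrays, was higher in the internode base by 3.03 (adjusted p = 0.0181). BOP1 read 9.27, 8.33 and 9.26 in the internode base, against 11.04 and 10.43 in the sheath base (log2 difference -1.79 ± 0.23 SE, adjusted p = 3.18e-06). At the top, NH5.2 again separated the organs (3.72, 5.22 and 4.89 in the internode, against 11.47, 11.43 and 11.34 in the sheath), whereas BOP1 read 10.81, 11.06 and 11.01 in the internode top and 10.57, 10.45 and 10.43 in the sheath top (adjusted p = 0.121).

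YABBY genes, markers of leaves and other lateral organs, were mixed: of 6 tested, 1 was called higher and 1 lower, both also without each of the 5 arrays. YAB2 was the gene called lower, at 5.41, 8.29 and 8.62 in the internode base, against 12.10 and 10.81 in the sheath base (log2 difference -4.02 ± 0.68 SE, adjusted p = 8.4e-05). YAB1 was the gene called higher, at 10.03, 10.73 and 10.67 in the internode base, against 8.83 and 8.32 in the sheath base (log2 difference 1.90 ± 0.36 SE, adjusted p = 0.000258). It was above both sheath arrays at the base and below the sheath at the top, where it read 5.61, 5.00 and 6.13 in the internode and 8.43, 8.41 and 8.32 in the sheath. The YAB1 probe set is one marked for possible cross-hybridization, and leaving such probe sets out gave 0 YABBY genes called higher. A dimmer YAB1 probe set went the other way without being called (difference -1.20, adjusted p = 0.583). YAB4, YAB5, YAB6 and DL were not called, with differences of 1.92, 0.31, -0.25 and -0.34, and for each of the 4 the 2 groups of arrays overlapped.

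**Figure D2:**
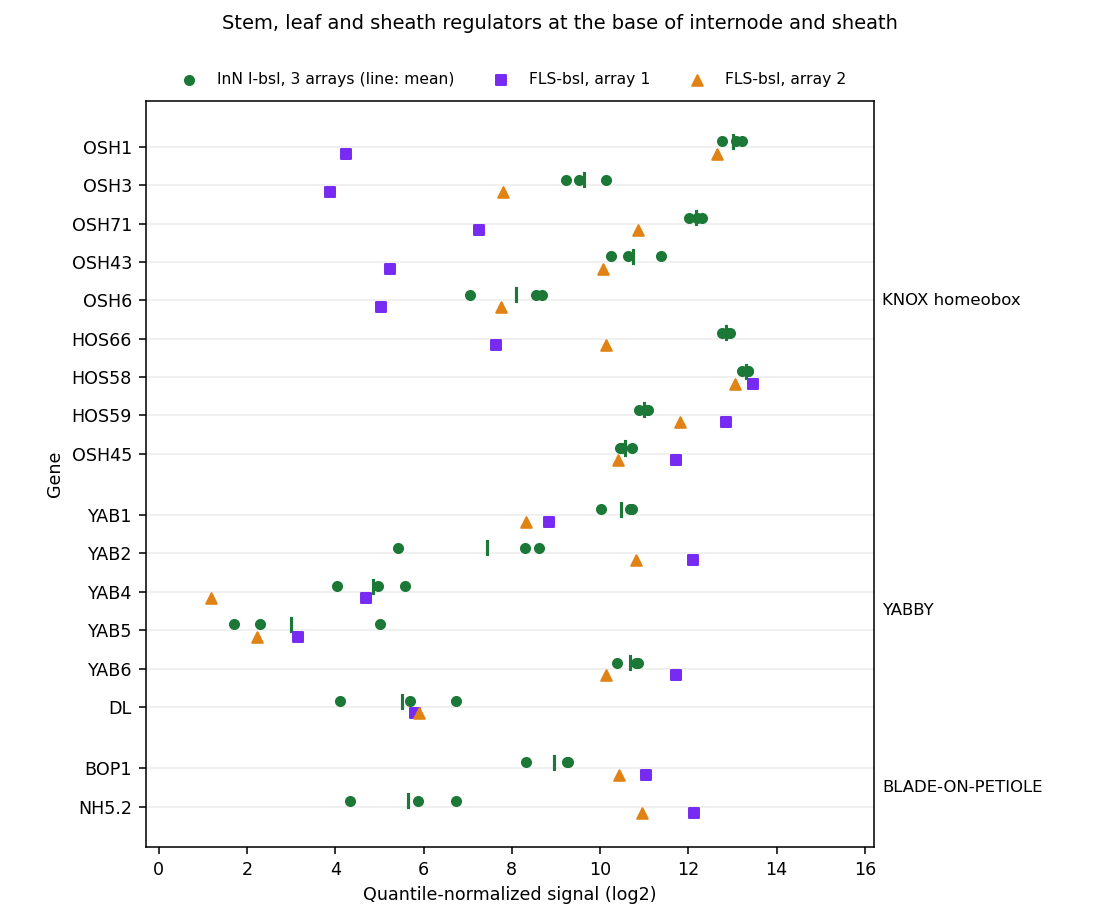
Signal (log2, quantile normalized) of the KNOX, YABBY and BLADE-ON-PETIOLE genes tested, with 3 InN I-bsl arrays above (circles, line at the mean) and FLS-bsl array 1 (square) and array 2 (triangle) below in each row. For OSH1, OSH71 and OSH43 array 2 lies near the internode arrays and array 1 far below, while for NH5.2 and BOP1 both sheath arrays lie above all internode arrays.

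The shoot gravitropism gene LA (LAZY1) and 2 SPL factors also differed. LA read 12.16, 12.95 and 12.42 in the internode base, against 6.36 and 10.32 in the sheath base (log2 difference 4.17 ± 1.07 SE, adjusted p = 0.00431), with node I at 12.24 ± 0.27 (SD, n = 3), and was not called without sheath base array 1 (adjusted p = 0.217). SPL8, known as LIGULELESS1 for its role at the boundary of blade and sheath, was lower, at 6.34, 6.92 and 6.57 in the internode base, against 8.24 and 8.94 in the sheath base (log2 difference -1.98 ± 0.38 SE, adjusted p = 0.000289). SPL2 was lower as well, at 10.64, 10.44 and 10.31 in the internode base, against 13.71 and 12.29 in the sheath base (log2 difference -2.53 ± 0.37 SE, adjusted p = 1.46e-05). Of 29 TCP, SPL and growth regulating factors tested, 3 were called higher and 4 lower, with a median of -0.12, and without array 1 0 were higher and 3 lower. SPL18 and GRF1 belonged to neither count and showed the distance between the sheath arrays: SPL18 read 8.27, 7.24 and 7.29 in the internode base, against 4.85 and 11.23 in the sheath base, and GRF1, a growth regulating factor, 7.10, 7.73 and 7.03 in the internode base, against 5.47 and 9.86 in the sheath base. In both genes all internode values lay between the 2 sheath values.

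Most genes of secondary wall formation were higher in the internode base, and 9 of 12 had every internode array above both sheath arrays, as had 22.1% of all genes. Of 12 tested genes for secondary wall cellulose and lignin, 8 were called higher and 1 lower, with a median of 1.76, against 9.67% and 15.8% of all genes. The median was 1.41 against sheath base array 1 and 2.06 against array 2, and it stayed above 0 under each scaling tried (1.01 with hybridization controls set equal). The counts without sheath base array 1 were 8 called higher and 1 lower, and 7 and 0 without array 2. In the 5 arrays alone 4 were called higher.

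The 3 cellulose synthase subunits of the rice secondary wall, CESA4, CESA7 and CESA9, were among these genes. CESA9 read 13.91, 13.64 and 13.94 in the internode base, against 7.95 and 9.79 in the sheath base (log2 difference 4.96 ± 0.90 SE, adjusted p = 0.000171), CESA4 read 14.58, 14.57 and 14.64 in the internode base, against 10.05 and 11.35 in the sheath base (log2 difference 3.89 ± 0.76 SE, adjusted p = 0.000372), and CESA7 read 14.09, 13.82 and 14.27 in the internode base, against 9.35 and 12.21 in the sheath base (log2 difference 3.28 ± 0.84 SE, adjusted p = 0.00423). All internode arrays exceeded both sheath arrays for each subunit, and array 2 was the higher of the sheath arrays each time. The CESA7 call was lost without sheath base array 1 (difference 1.85, adjusted p = 0.191). BC1 (BRITTLE CULM1), a COBRA-like protein needed for cellulose assembly and culm strength, followed at 14.05, 13.95 and 14.09 in the internode base, against 8.88 and 10.33 in the sheath base (log2 difference 4.43 ± 0.75 SE, adjusted p = 7.98e-05). In the internode top BC1 averaged 8.44 ± 0.41 and CESA9 7.20 ± 0.82, against 7.63 ± 0.27 and 3.76 ± 1.88 in the sheath top (SD, n = 3 each).

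Genes of monolignol synthesis rose in part. CAD2, a cinnamyl alcohol dehydrogenase of lignin synthesis, read 15.03, 14.87 and 15.18 in the internode base, against 13.27 and 12.89 in the sheath base (log2 difference 1.94 ± 0.51 SE, adjusted p = 0.00549). The 4-coumarate ligase genes 4CL5 and 4CL3 were higher by 2.63 (adjusted p = 0.000258) and 1.51 (adjusted p = 0.000511). 4CL4, at a difference of 0.97 (adjusted p = 0.00115), fell just short of the 2-fold limit, and CCR1 was not called (1.21, adjusted p = 0.497). A dimmer 4CL4 probe set was called higher by 1.96 (adjusted p = 0.0109). 4CL2 was the member called lower, at 5.36, 4.00 and 4.87 in the internode base, against 6.98 and 8.53 in the sheath base (log2 difference -3.01 ± 1.04 SE, adjusted p = 0.0315), with the difference carried more by array 2 than by array 1.

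Laccases, oxidases that couple monolignols into lignin, held the largest rise among the genes named here. LAC4 read 14.00, 13.84 and 14.18 in the internode base, against 5.38 and 8.87 in the sheath base (log2 difference 6.88 ± 1.13 SE, adjusted p = 5.3e-05). LAC10 read 14.41, 14.59 and 14.48 in the internode base, against 8.83 and 10.88 in the sheath base (log2 difference 4.64 ± 0.56 SE, adjusted p = 1.07e-06). LAC3 read 12.81, 11.77 and 11.08 in the internode base, against 6.72 and 8.80 in the sheath base (log2 difference 4.12 ± 1.03 SE, adjusted p = 0.00349) and was not called without sheath base array 1 (adjusted p = 0.0927). LAC7 ran the other way at 7.32, 7.16 and 7.52 in the internode base, against 11.03 and 9.81 in the sheath base (log2 difference -3.09 ± 0.66 SE, adjusted p = 0.000936). In all, 3 of 5 laccases tested were higher and 1 lower, with a median of 5.16 against sheath base array 1 and 3.08 against array 2. Of 12 laccase genes listed, 9 had a probe set and 5 passed the filter on low values.

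Xylan genes were the other wall group with many rises. Of 15 tested, 9 were called higher and 0 lower, with a median of 2.37 (2.35 against array 1 and 1.16 against array 2). Every internode array was above both sheath arrays for 9 of them. The counts without array 1 were 7 higher and 1 lower, and leaving out the probe sets that may cross-hybridize gave 6 and 0. IRX14, a glycosyltransferase of the xylan backbone, read 14.20, 13.91 and 14.15 in the internode base, against 11.05 and 12.11 in the sheath base (log2 difference 2.51 ± 0.23 SE, adjusted p = 2.4e-08), and IRX9L read 13.83, 13.61 and 13.73 in the internode base, against 11.38 and 11.15 in the sheath base (log2 difference 2.46 ± 0.14 SE, adjusted p = 2.74e-11). XOAT6, a xylan acetyltransferase gene, read 14.48, 14.47 and 14.44 in the internode base, against 10.28 and 12.32 in the sheath base (log2 difference 3.16 ± 0.37 SE, adjusted p = 5.67e-07). Its relative XOAT11 read 14.47, 14.27 and 14.41 in the internode base, against 9.98 and 12.84 in the sheath base (log2 difference 2.97 ± 0.44 SE, adjusted p = 1.62e-05). XOAT14 differed by 3.85 ± 0.92 (SE, adjusted p = 0.00259) and was not called without array 1 (adjusted p = 0.171).

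CASP-like proteins are membrane proteins related to those that place the Casparian strip, a lignin band in roots. Of 22 genes tested, 7 were called higher and 3 lower, and the median was 0.29, turning to -0.36 with hybridization controls set equal. It was 0.58 against sheath base array 1 and 0.30 against array 2. CASPL1B1 read 12.58, 12.67 and 12.50 in the internode base, against 6.49 and 5.09 in the sheath base (log2 difference 6.79 ± 1.32 SE, adjusted p = 0.000344), and CASPL1C2 read 12.70, 12.38 and 12.44 in the internode base, against 6.36 and 8.15 in the sheath base (log2 difference 5.25 ± 0.71 SE, adjusted p = 4.36e-06). For CASPL1B1 the other organs stood well below the internode base, with 2.90 ± 2.25 in the internode top, 4.72 ± 2.41 in node I and 6.51 ± 0.26 in the sheath top (SD, n = 3 each). CASPL5B1 and CASPL2B1 were higher by 3.55 and 2.82 (adjusted p = 7.52e-08 and 6.59e-06). CASPL2C1, at 11.34, 11.18 and 10.52 in the internode base, against 13.23 and 12.36 in the sheath base, was among those called lower (log2 difference -1.78 ± 0.26 SE, adjusted p = 1.07e-05).

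Cellulose synthases of the primary wall, which is laid down while cells grow, differed at their brightest probe sets from sheath base array 1 and hardly from array 2. Of 6 tested, 5 were called higher and 0 lower, with a median of 1.28. The median was 2.22 against array 1 and 0.13 against array 2, and without array 1 only 1, CESA3, was called, whose call was lost without array 2 (adjusted p = 0.00468, difference 0.84). CESA3 read 14.72, 14.77 and 14.76 in the internode base, against 13.91 and 13.45 in the sheath base (log2 difference 1.07 ± 0.18 SE, adjusted p = 8.52e-05). CESA6 read 14.24, 13.99 and 13.92 in the internode base, against 10.68 and 14.24 in the sheath base, and CESA1 read 14.45, 14.53 and 14.50 in the internode base, against 12.26 and 14.52 in the sheath base. For these 2 genes array 2 fell within or beside the internode values, and without array 1 the differences were -0.19 and -0.02 (adjusted p = 0.79 and 0.975). CESA5 read 13.10, 12.91 and 12.85 in the internode base, against 8.74 and 13.43 in the sheath base and was not called (adjusted p = 0.0639). With hybridization controls set equal, 0 of the 6 were called, and in the fit to 5 arrays alone likewise 0. Dimmer probe sets of CESA1 and CESA3 were called higher by more (2.22 and 1.96, adjusted p = 0.000983 and 3.83e-06). A dimmer probe set of CESA2 was not called (0.19, adjusted p = 0.851).

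Expansins, proteins that loosen growing walls, showed the same distance between the sheath arrays. Of 12 alpha expansins tested, 1 was called higher and 0 lower (0 and 1 without array 1, 3 and 0 without array 2). It was EXPA1, at 10.79, 8.90 and 9.21 in the internode base, against 1.47 and 9.51 in the sheath base (log2 difference 4.14 ± 1.37 SE, adjusted p = 0.0244), where array 1 was near the floor of the scale and array 2 lay among the internode values (adjusted p = 0.957 without array 1). EXPA10, at 11.63, 11.57 and 11.41 in the internode base, against 10.10 and 11.57 in the sheath base, was not called (adjusted p = 0.0707). Of 10 beta expansins, 0 were called higher and 1 lower (0 and 3 without array 1, 3 and 1 without array 2). EXPB2 read 3.51, 6.62 and 7.30 in the internode base, against 11.69 and 10.79 in the sheath base (log2 difference -5.43 ± 1.10 SE, adjusted p = 0.000532), below both sheath arrays. EXPB4 read 11.38, 10.81 and 10.61 in the internode base, against 7.00 and 12.89 in the sheath base, with every internode value between the 2 sheath values, and EXPB3 read 14.38, 12.73 and 12.77 in the internode base, against 10.23 and 13.10 in the sheath base, and neither was called (adjusted p = 0.52 and 0.153).

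Sucrose synthases, which supply UDP-glucose for cellulose, were high in the internode base. SUS1 read 15.01, 14.94 and 14.88 in the internode base, against 8.28 and 15.09 in the sheath base (log2 difference 3.26 ± 1.04 SE, adjusted p = 0.0197). Sheath base array 1 was far lower, whereas array 2 read as high as the internode arrays, and without array 1 the difference was -0.15 (adjusted p = 0.907). SUS5 read 10.75, 11.65 and 11.08 in the internode base, against 7.04 and 9.41 in the sheath base (log2 difference 2.94 ± 0.70 SE, adjusted p = 0.00255), and SUS6 read 10.92, 11.21 and 10.69 in the internode base, against 5.48 and 9.76 in the sheath base (log2 difference 3.32 ± 1.23 SE, adjusted p = 0.0447). Neither was called without array 1 (adjusted p = 0.136 and 0.631). SUS2 read 14.64, 14.09 and 14.09 in the internode base, against 14.14 and 14.31 in the sheath base, and its difference of 0.04 had a 95% interval of -0.42 to 0.51.

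**Figure D3:**
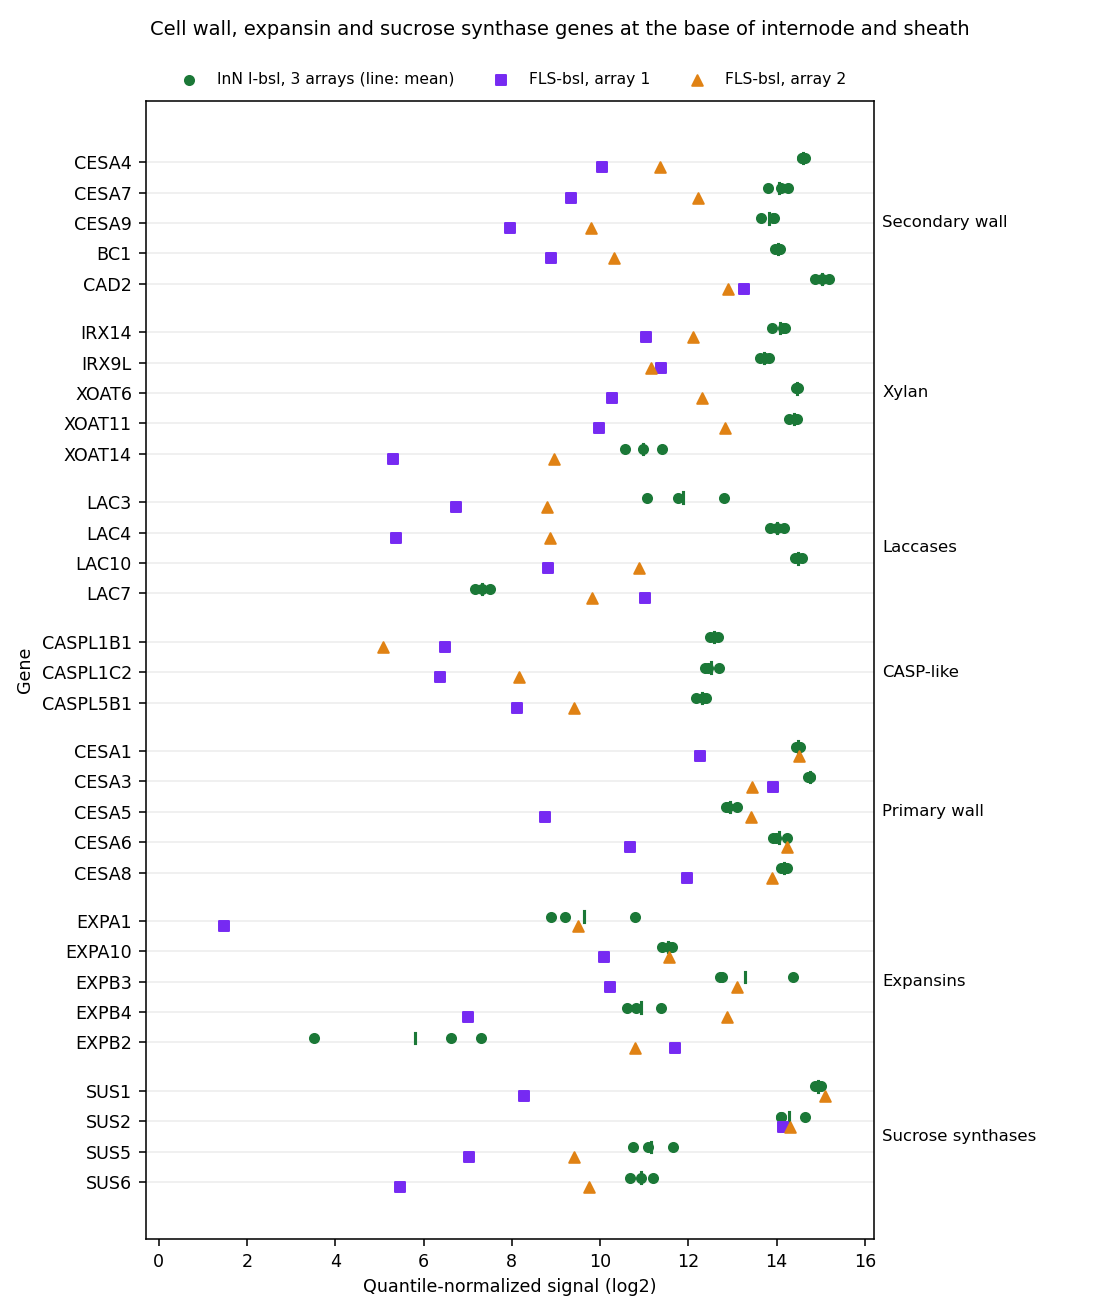
Signal (log2, quantile normalized) of wall, expansin and sucrose synthase genes, with 3 InN I-bsl arrays above (circles, line at the mean) and FLS-bsl array 1 (square) and array 2 (triangle) below in each row. For the secondary wall, xylan and CASP-like genes plotted both sheath arrays lie below the internode arrays, while for CESA1, CESA6, EXPA1 and SUS1 only array 1 does.

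Several genes of cell division were lower in the internode base than in both sheath arrays. Of 17 cyclin and B-type cyclin-dependent kinase genes tested, 1 was called higher and 5 lower. The median was -0.44 against sheath base array 1 and -1.11 against array 2. CYCB1-1, a mitotic cyclin, read 1.87, 0.35 and 1.58 in the internode base, against 8.98 and 8.90 in the sheath base (log2 difference -7.67 ± 0.84 SE, adjusted p = 2.48e-07). CYCB2-2, another mitotic cyclin, read 0.00, 1.19 and 2.67 in the internode base, against 7.28 and 7.96 in the sheath base (log2 difference -6.33 ± 1.08 SE, adjusted p = 8.7e-05). The 2 sheath arrays agreed closely with each other for CYCB1-1, and the internode values of both cyclins lay at the bottom of the scale. On log2(signal + 16), which damps differences at low signal, the differences were -4.76 and -3.49. CDKB2-1, a kinase active at the entry into mitosis, read 6.21, 5.22 and 6.48 in the internode base, against 8.82 and 8.92 in the sheath base (log2 difference -2.90 ± 0.64 SE, adjusted p = 0.00131). CYCD5-1, a D-type cyclin, fell by 1.81 (adjusted p = 0.00748), and CYCD2-2 was the member called higher (1.67, adjusted p = 0.00412). CYCB1-1 also read low in the sheath top (4.77, 5.06 and 4.74), in node I (5.53 on average) and in the middle of the flag leaf blade (4.53), against 7.32 in the internode top and 7.88 in flowers.

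Among DNA replication genes all calls were lower. Of 25 tested, 0 were called higher and 12 lower, with a median of -1.56 (-1.68 against array 1 and -1.34 against array 2). The number called lower was 8 without sheath base array 1 and 9 without array 2. PCNA, the sliding clamp of DNA polymerase, read 5.36, 6.39 and 7.51 in the internode base, against 10.16 and 9.75 in the sheath base (log2 difference -3.54 ± 0.36 SE, adjusted p = 1.03e-07). MCM4 and MCM2, subunits of the replicative helicase, were lower too (differences -5.91 and -2.68, adjusted p = 6.07e-05 and 8.99e-06). MCM4 read 0.10, 2.09 and 0.72 in the internode base, against 6.87 and 6.90 in the sheath base, and its difference was -2.87 on log2(signal + 16). RFC2, a subunit of the clamp loader, read 6.71, 7.19 and 7.86 in the internode base, against 10.54 and 9.69 in the sheath base (log2 difference -2.87 ± 0.25 SE, adjusted p = 8.09e-09).

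Kinesins, motors that move along microtubules, split into genes higher and genes lower. Of 34 tested, 11 were called higher and 6 lower, and the median was 0.70, turning to -0.27 with hybridization controls set equal. With sheath base array 1 left out 5 were called higher and 5 lower, and the median was -0.07. Among those lower were KIN10B, at 1.74, 2.53 and 5.11 in the internode base, against 7.92 and 8.21 in the sheath base (log2 difference -4.94 ± 0.64 SE, adjusted p = 2.65e-06), and KIN12C and KIN14N, with differences of -2.67 and -2.61 (adjusted p = 0.000146 and 3.11e-07). Among those higher, KIN14A read 10.91, 10.83 and 10.75 in the internode base, against 7.11 and 6.86 in the sheath base (log2 difference 3.85 ± 0.39 SE, adjusted p = 8e-08), and KIN14H and KIN14Q rose by 3.79 and 3.53 (adjusted p = 0.000142 and 2.45e-06). KIN4A, known as BRITTLE CULM12 for its part in ordering cellulose microfibrils, read 12.80, 12.61 and 12.72 in the internode base, against 10.07 and 12.00 in the sheath base (log2 difference 1.67 ± 0.31 SE, adjusted p = 0.000209). For KIN10B the 2 sheath arrays lay close together, whereas for KIN4A array 2 was near the internode arrays.

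Tubulin genes encode the microtubule subunits. Of 10 tested, 3 were called higher and 1 lower, and the median of 0.26 also turned negative (-0.28) with hybridization controls set equal. TUBB8 read 14.51, 14.51 and 14.53 in the internode base, against 10.25 and 13.83 in the sheath base (log2 difference 2.47 ± 0.59 SE, adjusted p = 0.00239), and TUBB4 read 14.52, 14.73 and 14.70 in the internode base, against 11.59 and 14.46 in the sheath base (log2 difference 1.62 ± 0.47 SE, adjusted p = 0.0108). All 10 genes were higher on sheath base array 2 than on array 1, and with array 1 left out 0 tubulins were called higher and 2 lower. TUBB2, the one called lower in the full fit, read 9.01, 8.59 and 8.63 in the internode base, against 9.89 and 13.57 in the sheath base (log2 difference -2.98 ± 0.60 SE, adjusted p = 0.000489).

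Cytosolic ribosomal protein genes, parts of the machinery of protein synthesis, were lower as a list. Of 22 tested, 18 were called lower in the internode base and 0 higher, with a median of -1.58. The sheath arrays were alike here: the median was -1.41 against array 1 and -1.79 against array 2, and 16 of the 22 were called lower in the full fit and without each of the 5 arrays. RPL7A-1 read 11.61, 11.16 and 11.24 in the internode base, against 13.95 and 13.55 in the sheath base (log2 difference -2.42 ± 0.17 SE, adjusted p = 3.9e-10), RPL9 read 11.55, 10.76 and 11.05 in the internode base, against 13.32 and 13.42 in the sheath base (log2 difference -2.25 ± 0.17 SE, adjusted p = 7.27e-10), and RPL30 read 11.47, 11.49 and 11.19 in the internode base, against 13.23 and 13.90 in the sheath base (log2 difference -2.18 ± 0.20 SE, adjusted p = 1.8e-08). All internode values lay below all sheath values for the 3 genes. At the top the median was 0.50, with 1 called higher and 0 lower of the same 22, against 6.87% and 7.96% of all genes. In the fit to the 5 arrays alone, 4 were called lower.

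Photosynthetic genes gave counts that depended on the sheath array. Of 14 tested, 1 was called higher and 3 lower, with a median of -0.22. The counts were 2 higher and 2 lower without array 1 (median 0.15), and 0 higher and 6 lower without array 2 (median -0.80). RBCS, the small subunit of the carbon-fixing enzyme Rubisco, read 8.24, 8.98 and 8.51 in the internode base, against 12.85 and 11.95 in the sheath base (log2 difference -3.82 ± 0.23 SE, adjusted p = 5.5e-11). This probe set is marked for possible cross-hybridization, as is a dimmer one also called lower (-3.42, adjusted p = 7.05e-08). An unmarked RBCS probe set differed by -0.76 (adjusted p = 0.0263) and was not called. Leaving marked probe sets out gave 0 photosynthetic genes called higher and 2 lower, with a median of 0.01. GLO5, a glycolate oxidase of photorespiration, read 8.05, 8.46 and 8.07 in the internode base, against 11.20 and 10.09 in the sheath base (log2 difference -2.45 ± 0.28 SE, adjusted p = 4.44e-07). Both groups lay well below the tops, where RBCS averaged 14.94 ± 0.06 in the internode and 14.69 ± 0.24 in the sheath (SD, n = 3 each). CAB2R, a light-harvesting protein, read 15.28, 15.36 and 15.43 in the internode base, against 15.32 and 15.27 in the sheath base, and plastocyanin (PETE) 14.85, 14.78 and 14.79 in the internode base, against 14.77 and 14.73 in the sheath base, close to the top of the scale in all 5 arrays. Their differences of 0.06 and 0.06 had 95% intervals of -0.30 to 0.43 and -0.24 to 0.36. None of the 10 chlorophyll synthesis genes tested was called by the limma fit, and 4 had an unadjusted p under 0.05, among them GLK2, a regulator of chloroplast development (-0.90, adjusted p = 0.00159), and CHLH, a magnesium chelatase subunit (0.79, adjusted p = 0.0176). With array 1 left out 1 chlorophyll gene was called higher, and with array 2 left out 2 were called lower.

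Starch genes that were called were lower in the internode base. Of 9 tested, 4 were called lower and 0 higher. The counts were 2 lower and 1 higher without sheath base array 1, and 2 lower and 0 higher when probe sets that may cross-hybridize were left out. WX1, the granule-bound starch synthase that makes amylose, read 4.25, 4.91 and 4.25 in the internode base, against 9.93 and 8.42 in the sheath base (log2 difference -4.71 ± 0.62 SE, adjusted p = 3.07e-06). This WX1 probe set is marked for possible cross-hybridization, as is the one used for SBE. Of 4 dimmer WX1 probe sets, 2 were called lower (-4.10 and -2.55, adjusted p = 0.00314 and 0.000223), the second of them not so marked, and 2 were not called (-0.55 and 0.58, adjusted p = 0.673 and 0.638). SSI, a soluble starch synthase, read 9.13, 9.60 and 9.60 in the internode base, against 12.95 and 11.59 in the sheath base (log2 difference -2.82 ± 0.27 SE, adjusted p = 3.85e-08). The branching enzyme gene SBE and the ADP-glucose pyrophosphorylase subunit gene AGPS2 fell by 1.23 and 1.02 (adjusted p = 0.00021 and 0.00122). Sheath base array 1 was above array 2 for all 4, and the internode arrays were below both.

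Among 30 genes of sucrose metabolism and sugar transport tested, 5 were called higher and 5 lower, and without array 1 2 were higher and 5 lower, and with array 2 left out 7 and 7. SWEET1B, of the SWEET family of sugar uniporters, read 1.96, 5.37 and 1.72 in the internode base, against 9.81 and 8.41 in the sheath base (log2 difference -6.09 ± 0.94 SE, adjusted p = 2.58e-05), and MST3, a monosaccharide transporter, read 9.50, 7.54 and 7.46 in the internode base, against 10.60 and 9.76 in the sheath base (log2 difference -2.01 ± 0.47 SE, adjusted p = 0.00222). SWEET11, a sucrose-exporting SWEET, read 11.17, 11.03 and 9.91 in the internode base, against 6.33 and 13.61 in the sheath base, so that every internode value lay between the sheath arrays. It was not called (0.74, adjusted p = 0.66), and it was called in opposite directions without array 1 (-2.90, adjusted p = 0.000379) and without array 2 (4.38, adjusted p = 1.73e-06). The aquaporin-family gene NIP1-1 was likewise called in opposite directions (-2.48 without array 1 and 4.05 without array 2, adjusted p = 0.00113 and 2.7e-06), at 11.34, 10.41 and 10.47 in the internode base, against 6.69 and 13.22 in the sheath base.

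Mineral transport was the largest list and moved in both directions. Of 77 tested genes, 8 were called higher and 17 lower, with a median of -0.18, against -0.13 over all genes. The counts without sheath base array 1 were 10 and 8, and 7 and 22 without array 2. ZIP3, which takes zinc out of the xylem in rice nodes, had the largest fall among genes above the level set for naming, at 4.53, 5.19 and 5.13 in the internode base, against 12.62 and 12.08 in the sheath base (log2 difference -7.40 ± 0.55 SE, adjusted p = 7.79e-10). Node I averaged 13.38 ± 0.07 and the sheath top 7.47 ± 0.83 (SD, n = 3 each), so both sheath base arrays lay nearer to node I for this gene. NRAMP5, the manganese and cadmium uptake transporter, read 5.44, 3.69 and 6.14 in the internode base, against 10.61 and 9.85 in the sheath base (log2 difference -5.14 ± 0.78 SE, adjusted p = 2.07e-05). NAS3, a nicotianamine synthase that makes a chelator of iron and zinc, read 5.77, 6.91 and 7.22 in the internode base, against 10.37 and 10.27 in the sheath base (log2 difference -3.68 ± 0.48 SE, adjusted p = 2.71e-06). PHT1-2, a phosphate transporter, fell by 3.36 (adjusted p = 6.39e-05).

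Other node-associated transporters were lower by smaller amounts. VIT2, a vacuolar iron and zinc transporter, read 9.96, 10.76 and 10.22 in the internode base, against 13.52 and 11.98 in the sheath base (log2 difference -2.44 ± 0.80 SE, adjusted p = 0.0228), and Lsi6, a silicic acid channel, read 12.52, 12.80 and 13.11 in the internode base, against 14.67 and 13.48 in the sheath base (log2 difference -1.27 ± 0.43 SE, adjusted p = 0.0268). Neither was called without sheath base array 1 (adjusted p = 0.266 and 0.406). HKT1;5, a sodium transporter that keeps salt out of leaves, fell by 2.30 (adjusted p = 0.00734). Of the 6 node transporter markers, 3 were called lower (ZIP3, VIT2 and Lsi6) and 1 higher (YSL16, 1.27, adjusted p = 0.0108). With array medians set equal, 0 were called higher and 3 lower, and on the deposited scale 1 and 2. The YSL16 difference was 1.46 without sheath base array 1 and 1.07 without array 2. The share of node tissue in the 5 samples was not tested.

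On the higher side stood potassium and copper transporters. HAK4, of the potassium transporter family, read 10.50, 12.13 and 11.98 in the internode base, against 7.20 and 4.35 in the sheath base (log2 difference 5.77 ± 1.10 SE, adjusted p = 0.000304), and was also high in the internode top (13.77, 13.78 and 14.24) and in node I (13.91 ± 0.47). COPT1, a copper transporter, read 12.69, 11.87 and 11.84 in the internode base, against 7.13 and 10.47 in the sheath base (log2 difference 3.33 ± 0.67 SE, adjusted p = 0.000516), and its call was lost without sheath base array 1 (adjusted p = 0.0696). HMA5, a copper pump for xylem loading, rose by 1.83 (adjusted p = 0.00197), and IRT1, an iron transporter, by 1.67 (adjusted p = 0.00481).

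Nitrogen and metallothionein genes were mostly lower where called. NIA1, a nitrate reductase, read 6.08, 2.10 and 5.22 in the internode base, against 10.64 and 9.51 in the sheath base (log2 difference -5.61 ± 0.68 SE, adjusted p = 1.02e-06). AMT1-1, an ammonium transporter, read 10.72, 8.53 and 8.41 in the internode base, against 13.06 and 11.94 in the sheath base (log2 difference -3.28 ± 0.47 SE, adjusted p = 1.16e-05). GLN1-3, a cytosolic glutamine synthetase, was higher at 9.06, 8.82 and 8.72 in the internode base, against 5.74 and 5.77 in the sheath base (log2 difference 3.11 ± 0.81 SE, adjusted p = 0.00496), while GLN1-1, another isoform, read 14.77, 14.75 and 14.75 in the internode base, against 14.60 and 14.73 in the sheath base and was not called (adjusted p = 0.746). Of 15 ammonium and nitrate genes tested, 2 were called higher and 4 lower, against 1 and 2 without array 1. Metallothioneins, small proteins that bind metals, had 3 of 7 called lower and 0 higher. Their median was -1.23 against sheath base array 1 and -0.63 against array 2. MT1A read 10.51, 9.26 and 10.88 in the internode base, against 14.75 and 13.80 in the sheath base (log2 difference -4.06 ± 0.34 SE, adjusted p = 4.2e-09), with every internode array below both sheath arrays. MT2B and MT2C, both near the top of the scale, were not called at their brightest probe sets (differences -0.50 and -0.53). Other bright probe sets of both genes, which may cross-hybridize, were called lower, 2 of MT2B (-1.0 and -1.77, adjusted p = 0.000808 and 1.81e-05) and 1 of MT2C (-1.39, adjusted p = 0.0493).

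Among 24 aquaporin-family genes tested, 2 were called higher and 2 lower, the lower ones including Lsi6 under its family name NIP2-2, and without array 1 the counts were 1 and 3, without array 2 2 and 4. TIP3-1, a channel of the vacuolar membrane, stood out at 11.09, 10.02 and 10.35 in the internode base, against 4.17 and 5.66 in the sheath base (log2 difference 5.57 ± 0.77 SE, adjusted p = 6.1e-06). The bright water channels TIP1-1 and PIP1-2 differed by -0.04 and 0.07 (95% intervals -0.51 to 0.42 and -0.20 to 0.34).

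Hormone genes gave few calls, and most were lower, as were most calls over all genes (15.8% lower against 9.67% higher). The share called lower was 19.4% of cytokinin and 14.3% of Aux/IAA genes, near that of all genes. Of 14 auxin response factors tested, 2 were called higher and 1 lower, and of 9 GH3 auxin conjugation genes 1 and 1. The median of the auxin response factors was 0.69 against sheath base array 1 and -0.04 against array 2. For the GH3 genes it was -0.11 and -0.41. PIN5A, an auxin carrier of the PIN family, read 3.60, 2.52 and 4.92 in the internode base, against 10.56 and 9.77 in the sheath base (log2 difference -6.48 ± 0.75 SE, adjusted p = 5.72e-07), and PIN10a read 9.56, 8.75 and 8.35 in the internode base, against 10.46 and 10.46 in the sheath base (log2 difference -1.57 ± 0.44 SE, adjusted p = 0.00871). The PIN10a probe set is marked for possible cross-hybridization, and an unmarked, dimmer one was not called (-0.57, adjusted p = 0.414). Of 21 Aux/IAA repressors tested, 2 were called higher and 3 lower, with IAA6 at 4.97, 5.50 and 2.25 in the internode base, against 8.53 and 7.39 in the sheath base (log2 difference -3.72 ± 0.66 SE, adjusted p = 0.000129). Of 31 cytokinin genes, 0 were called higher and 6 lower, among them LOGL9 at 5.07, 3.90 and 4.31 in the internode base, against 9.71 and 8.54 in the sheath base (log2 difference -4.70 ± 0.49 SE, adjusted p = 1.21e-07) and LOG at 8.39, 8.59 and 8.59 in the internode base, against 11.17 and 9.94 in the sheath base (log2 difference -2.03 ± 0.34 SE, adjusted p = 6.25e-05), which encode enzymes that release active cytokinin. With array 1 left out 2 cytokinin genes were called lower. GA20ox3, of gibberellin synthesis, fell by 1.53 (adjusted p = 0.00081), and SLR1, the DELLA repressor of gibberellin signalling, was not called (0.08, adjusted p = 0.822). None of 7 brassinosteroid genes was called by the limma fit, 1 had an unadjusted p under 0.05, 1 was called lower without array 1 and 2 were called higher without array 2.

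A pair of jasmonate-related genes was among the 10 largest falls. JAMYB, a MYB factor induced by jasmonate in rice, read 6.47, 5.45 and 6.23 in the internode base, against 12.31 and 10.45 in the sheath base (log2 difference -5.33 ± 0.51 SE, adjusted p = 3.15e-08), and JAZ11, of the JAZ repressors of jasmonate signalling, read 6.21, 7.24 and 3.92 in the internode base, against 10.65 and 9.91 in the sheath base (log2 difference -4.49 ± 0.78 SE, adjusted p = 0.000105). AOS1, the allene oxide synthase of jasmonate synthesis, fell by 1.39 (adjusted p = 0.000673), while the lipoxygenase gene LOX5 rose by 1.29 (adjusted p = 0.0471), a call lost without array 1 (adjusted p = 0.887). Hd3a, the rice florigen made in leaves, read 3.16, 1.46 and 5.68 in the internode base, against 9.64 and 8.54 in the sheath base (log2 difference -5.66 ± 0.73 SE, adjusted p = 2.68e-06), with every internode array below both sheath arrays. NAC010, a NAC factor, read 2.81, 2.30 and 5.23 in the internode base, against 10.01 and 7.76 in the sheath base (log2 difference -5.44 ± 0.73 SE, adjusted p = 4.28e-06).

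**Figure D4:**
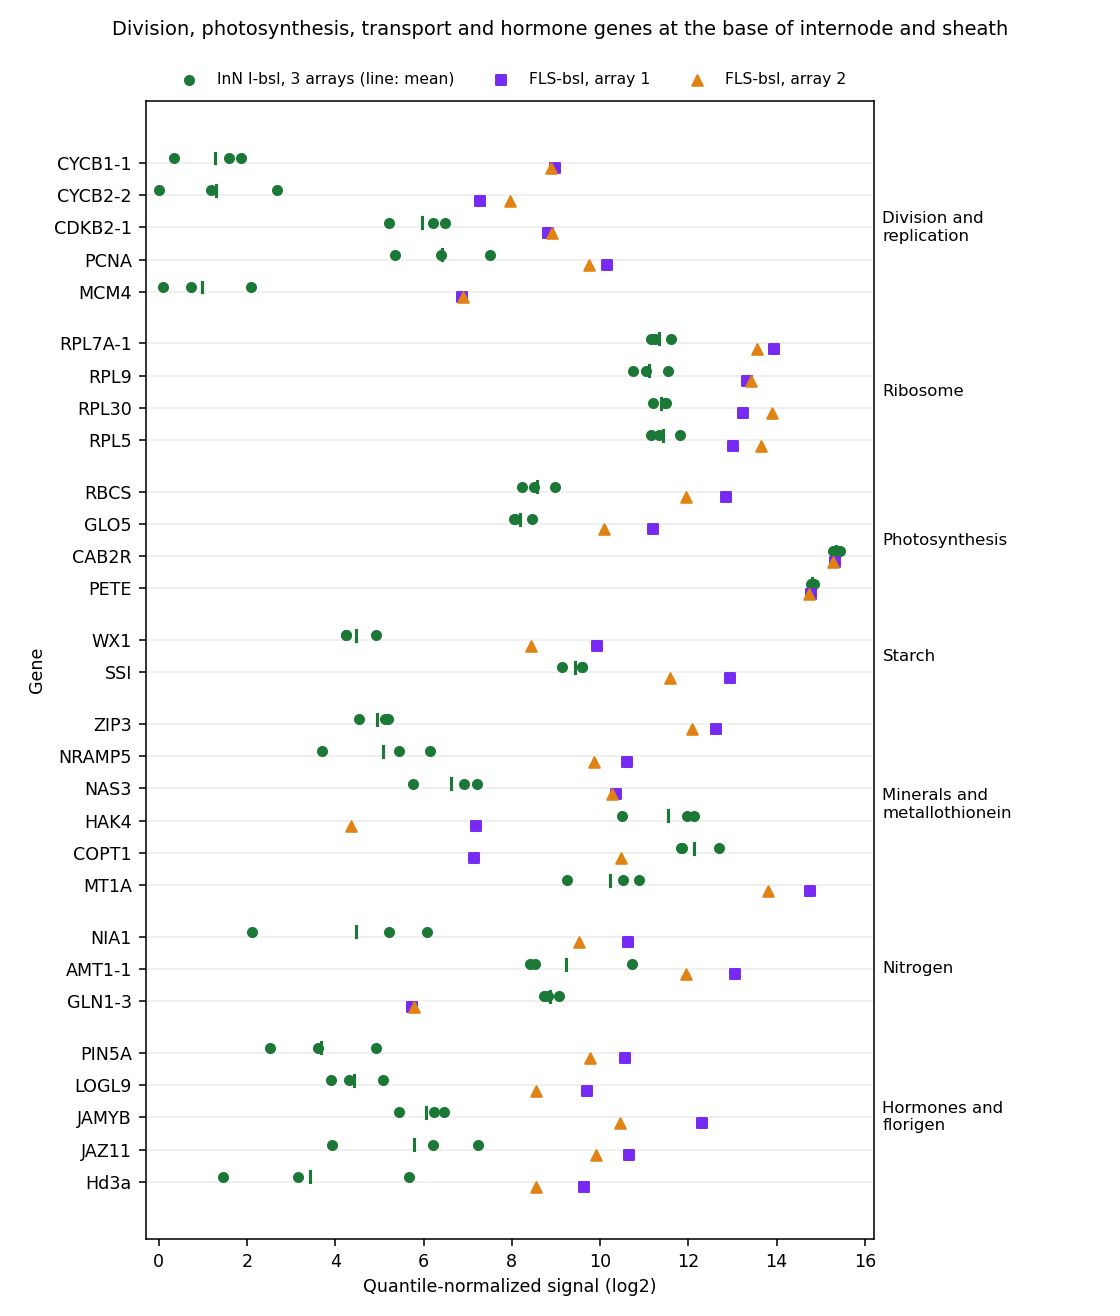
Signal (log2, quantile normalized) of division, ribosomal, photosynthetic, starch, mineral, nitrogen and hormone genes, with 3 InN I-bsl arrays above (circles, line at the mean) and FLS-bsl array 1 (square) and array 2 (triangle) below in each row. The internode arrays lie below both sheath arrays for all genes plotted except HAK4, COPT1 and GLN1-3, which lie above, and CAB2R and PETE, which lie beside them.

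The remaining genes among the 10 largest rises and falls had mixed functions. R1C-Prx, a peroxiredoxin, read 12.52, 11.88 and 12.80 in the internode base, against 7.66 and 6.57 in the sheath base (log2 difference 5.29 ± 0.48 SE, adjusted p = 1.5e-08), and pla2-II, a phospholipase, read 12.40, 12.68 and 12.89 in the internode base, against 7.40 and 7.89 in the sheath base (log2 difference 5.01 ± 0.54 SE, adjusted p = 2.25e-07). CSFL8, listed also as OsCslF8 of the family that makes mixed-linkage glucan, read 9.96, 10.99 and 10.63 in the internode base, against 1.75 and 9.51 in the sheath base (log2 difference 4.89 ± 1.21 SE, adjusted p = 0.00325), with array 2 near the internode arrays and no call without array 1 (adjusted p = 0.4). On the lower side, ASMT3, named as a methyltransferase of melatonin synthesis, read 7.31, 5.67 and 4.83 in the internode base, against 12.57 and 11.01 in the sheath base (log2 difference -5.85 ± 0.86 SE, adjusted p = 1.37e-05), and GRXC15, a glutaredoxin, read 9.15, 6.24 and 7.81 in the internode base, against 12.54 and 11.14 in the sheath base (log2 difference -4.11 ± 0.64 SE, adjusted p = 2.93e-05). The rule took the largest differences among called probe sets without overlap between the arrays. That they mostly hold when 1 array is left out is thus largely set by the choice. Among the rises, OSH1, by its dimmer probe set, and CSFL8 rested on sheath base array 1. Their differences were 0.54 and 1.01 without array 1, and 10.15 and 8.77 without array 2.

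The comparison of the tops, internode I against flag leaf sheath, asked whether stem and sheath differed alike at both ends. It called 2138 probe sets higher in the internode top and 2607 lower (5.25% and 6.4% of those tested). The probe sets called higher at both ends numbered 715, which is 20.8% of the base list and 33.4% of the top list, and 840 were lower at both (16.8% and 32.2%). Opposite calls numbered 177 higher at the base and lower at the top, and 139 the other way. The difference of the 2 differences was itself tested and was called positive for 2697 probe sets (6.62%) and negative for 3944 (9.69%).

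Several gene lists differed between organs at one end more than at the other. The difference of differences was positive for 7 of 15 xylan genes and 10 of 22 CASP-like genes, and negative for 0 of either, against 8.55% positive and 14.0% negative over all genes. It was negative for 19 of 22 ribosomal protein genes, 10 of 25 replication genes and 6 of 17 cyclin and kinase genes. For the cyclins, 4 were called higher in the internode top than in the sheath top and 0 lower, and for replication 3 and 0. Over all genes, 6.87% were called higher and 7.96% lower at the top. LAC4 was called higher at both ends, and at the top it averaged 6.87 ± 1.19 in the internode and 1.41 ± 1.91 in the sheath (SD, n = 3 each).

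Single genes showed the contrast between the ends. CASPL1B1 was called higher in the internode at the base and lower at the top (0.68, 5.18 and 2.85 in the internode top, against 6.48, 6.78 and 6.26 in the sheath top, adjusted p = 0.0323), with a difference of differences of 10.40 ± 1.77 SE, adjusted p = 0.000147. EXPA2, an alpha expansin, was not called at the base, where it read 12.35, 9.21 and 8.57 in the internode base, against 8.48 and 8.76 in the sheath base, and at the top read 5.54, 5.67 and 5.91 in the internode and 12.30, 12.32 and 12.30 in the sheath. Its difference of differences was 8.02 ± 1.26 SE, adjusted p = 6.1e-05. BURP17, a BURP-domain protein, was not called at the base either, at 13.11, 13.27 and 14.08 in the internode base, against 15.16 and 14.84 in the sheath base (adjusted p = 0.33), and read 3.91, 7.08 and 7.74 in the internode top against 14.89, 14.89 and 15.04 in the sheath top (difference of differences 7.19 ± 1.47 SE, adjusted p = 0.001).

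In the other direction, Hd3a was called lower in the internode at the base and higher at the top (adjusted p = 0.0184 at the top). Hd3a read 12.59, 12.42 and 12.94 in the internode top, against 10.50, 10.26 and 10.54 in the sheath top, and its difference of differences was -7.87 ± 0.98 SE, adjusted p = 3.78e-06. ASMT3 read 13.44, 14.03 and 13.57 in the internode top, against 11.44, 11.50 and 11.80 in the sheath top, where it was not called (adjusted p = 0.0572), with a difference of differences of -7.95 ± 1.15 SE, adjusted p = 2.35e-05. LAC7 and NAS3 were, like Hd3a, called lower at the base and higher at the top (differences of differences -6.66 and -6.33, adjusted p = 8.5e-06 and 2.49e-07). For OSH1 the difference of differences of -6.50 (adjusted p = 0.0193) rested on sheath base array 2, since without that array it was -2.29 (adjusted p = 0.272). ZIP3, HAK4 and LAC4 differed in the same direction at both ends, with top differences of -5.39, 6.06 and 5.46 (adjusted p = 7.82e-08, 0.000115 and 0.000431).

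**Figure D5:**
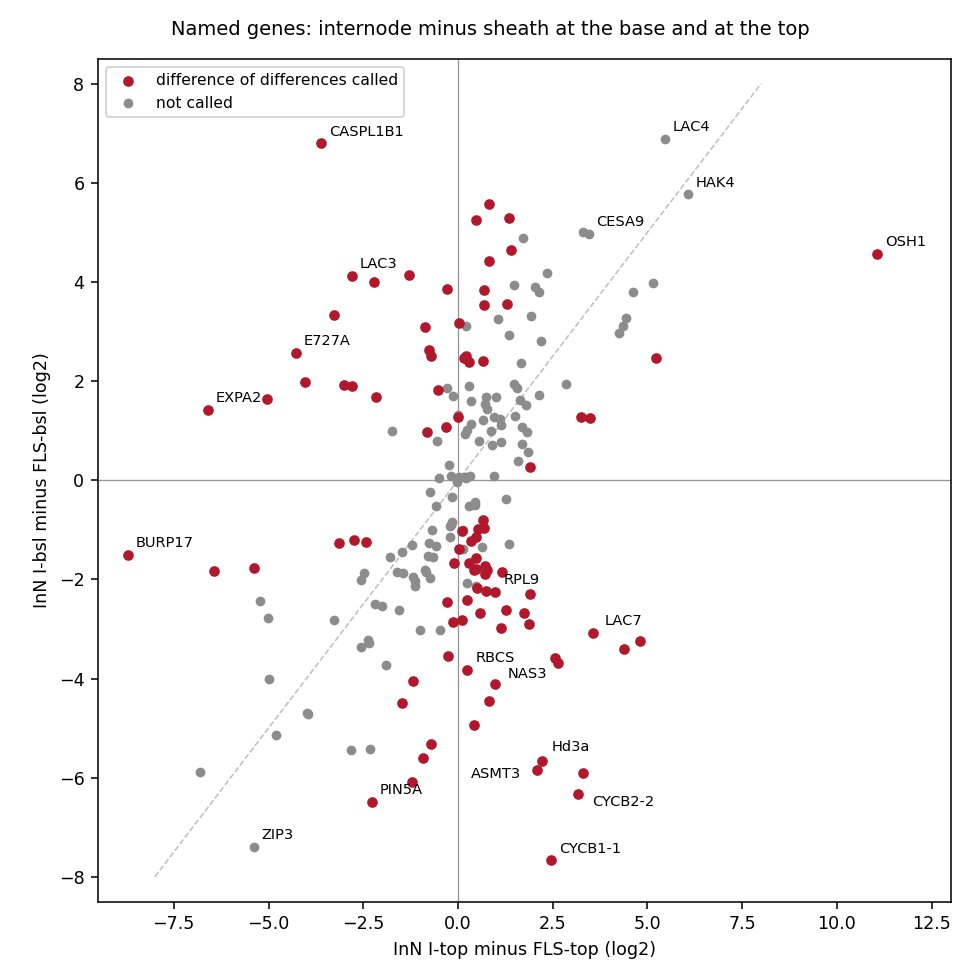
Differences of the named genes at the base (InN I-bsl minus FLS-bsl, vertical axis) and at the top (InN I-top minus FLS-top, horizontal axis), in log2 units, with equal differences on the dashed line and red points where the difference of differences was called. CASPL1B1, EXPA2, BURP17 and LAC3 lie above the line, CYCB1-1, ASMT3, Hd3a and OSH1 below it, and HAK4 and ZIP3 close to it.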

How the data were processed

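The values used are the authors' deposited signal intensities, on a linear scale, for 57381 probe sets on each of 35 arrays. Each deposited array has a trimmed mean near 500. Which software made these signals is not given here, and no detection call was used. Signals were floored at 1, taken to log2 and quantile normalized over all 35 arrays (limma 3.58.1, R 4.3.3). The 123 control probe sets were left out. The filter kept 40713 of 57258 probe sets, those reaching the overall median (log2 5.83) on 2 or more of 32 arrays. All 11 groups with 2 or more arrays entered 1 limma fit (lmFit and eBayes, 21 residual degrees of freedom), and p-values were Benjamini-Hochberg adjusted over all probe sets tested. The number of arrays, above all the 2 of the sheath base, limits the precision.

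Genes were named from GEO's platform annotation and the RefSeq gene table of assembly ASM3414082v1, and lists used 1 probe set a gene, the brightest. Of the probe sets tested, 21197 had 1 gene, 88 several and 19428 none, and only those with 1 gene were named. The members and the 45 gene lists were chosen with earlier results of these data known. Named genes are the 10 largest called rises and 10 falls over all probe sets, with each gene's most changed probe set, a level of at least 9.77 in the higher group and no overlap between the arrays, list members (the 4 largest called, and others a sentence needed), all KNOX, YABBY and BLADE-ON-PETIOLE genes, and the 5 largest differences of differences each way. Tested on simulated data for this comparison (40713 probe sets), the fit found 60 of 100 added changes of size 3 (log2) and 29 of 100 of size 1.5. It made 3 false calls. The simulation gave every group the same spread, so it does not tell how many false calls the wider sheath base pair brings. Alternatives covered the scaling, low signals, filters, cross-hybridizing probe sets, the arrays fitted, each array left out and the replicate number as a block.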

Additional observations from a re-analysis of the deposited data

Results flagged for a closer look

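For these 22 named genes the difference between internode and sheath was not the same at the base and at the top. The test was that of the difference of differences in the limma fit (base difference minus top difference, in log2 units). Such calls were not particular to them. Of 171 further named genes of the lists, 28 were called positive and 44 negative, and over all genes 8.55% and 14.0%. Some of the 22 were named because this difference was among the largest. Among cell wall and CASP-like genes the difference of differences was 10.40 for CASPL1B1, 4.78 for CASPL1C2, 6.93 for LAC3, -6.66 for LAC7 and 8.02 for EXPA2. For R1C-Prx, a peroxiredoxin, it was 3.94. Among the stem and leaf regulators it was -6.50 for OSH1, 3.97 for OSH43, 4.71 for YAB1, 4.92 for YAB4 and -2.26 for BOP1. Among transport and metabolic genes it was 4.74 for TIP3-1, -4.21 for PIN5A, -6.33 for NAS3, -4.67 for NIA1 and -7.95 for ASMT3. It was -4.63 for JAMYB, -3.01 for JAZ11, -5.08 for GRXC15, -7.87 for Hd3a, 7.19 for BURP17 and 6.84 for E727A, a trypsin inhibitor. A positive value means that internode exceeded sheath by more at the base. The call was lost without FLS-bsl array 1 for OSH43 (adjusted p = 0.364), JAZ11 (0.151) and E727A (0.14), and without FLS-bsl array 2 for OSH1 (0.272) and YAB4 (0.0901). Of 11 fits that each left out 1 array of the 4 groups, JAZ11 was called in 5.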

How the results depend on the processing

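Counts at the base moved by over 1.5 times in 3 settings: with array medians set equal 7943 probe sets were lower, with hybridization controls set equal 1334 were higher and 14057 lower, and in the 5 arrays alone 823 were higher and 754 lower. At the top, counts without the 2-fold limit were 3895 and 4219, array medians gave 3927 lower, and hybridization controls 873 higher and 9084 lower. Leaving out 1 array gave 2743 to 4153 higher and 3785 to 5710 lower at the base, 2392 to 3262 and 3537 to 4763 for the difference of differences, and 1747 to 1923 and 2085 to 2372 at the top. Leaving out 1 array turned 5 named genes, whose range ran from the value without FLS-bsl array 1 to that without array 2: CESA6 -0.19 to 3.37, CESA1 -0.021 to 2.24, SUS1 -0.15 to 6.66, SWEET11 -2.90 to 4.38 and NIP1-1 -2.48 to 4.05. Of the 214 named probe sets, which include some not called in the full fit, the 5-array fit ended the call of 119. Calls were also lost without FLS-bsl array 1, those of CESA6, CESA1 and SUS1 among them. The replicate block gave 3395 higher and 4954 lower at the base and ended 5 named calls, but same-numbered arrays of the 2 base groups did not deviate together (r = -0.082 and -0.0065 over probe sets), so the numbers are not read as pairs. Without cross-hybridizing probe sets 187 of the 214 had a value, and the filter on every array of a base group also left some out. Why settings differ was not tested beyond the arrays each one holds. Low signals limit the largest falls, since differences near the floor shrink on log2(signal + 16).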
